A study of Mus musculus with 6 samples.

Results

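The testis-specific serine kinase (TSSK) family is encoded in the mouse by Tssk1, Tssk2, Tssk3, Tssk4, Tssk5 and Tssk6. These 6 genes were taken by symbol from a table of 54532 genes, in which each of the 6 symbols occurred once, and all 6 had reads in every library. The table comes from RNA sequencing of whole testis, with 3 libraries from wild-type mice (WT 1 to WT 3) and 3 from mice carrying a knockout of 1700052I22Rik (KO 1 to KO 3), a long non-coding RNA gene. Both groups share the tissue and the library preparation, and they differ by that genotype. The sources used here do not give strain, age or the extent of the deletion. No label says that replicates are different mice, and p-values therefore reflect library-to-library spread, which may be technical.

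TSSKs are protein kinases made almost only in male germ cells, mostly in spermatids, the haploid cells that condense their chromatin and build a flagellum after meiosis. TSSK1 and TSSK2 phosphorylate the testis-specific kinase substrate TSKS, and male mice lacking both are infertile. Loss of TSSK6, also called SSTK, impairs the replacement of histones by protamines and leaves males sterile, and loss of TSSK3 likewise makes males infertile. TSSK4 phosphorylates the outer dense fibre protein ODF2 of the sperm tail. The comparison of KO with WT asked whether the RNA levels of this family, or its make-up, differed in testes without the non-coding RNA, whose study concerns spermatid chromatin condensation.

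Depth was even, from 17635045 to 18117593 counts per library. 1700052I22Rik itself had 185, 175 and 218 reads in WT 1 to WT 3 and 0 in each KO library. Of the lists of marker genes used to describe the tissue, all 12 round spermatid, 12 elongating spermatid and 12 spermatocyte markers were detected, while 3 of 8 epididymis markers (Lcn5, Lcn8 and Spink5) had no read. WT 1 and KO 2 stood apart from the other libraries on principal component 1 (26.6% of the variance), with scores of -22.8 and -30.2 against 6.98 to 17.5. Their summed Leydig cell markers were 294 and 329 CPM (counts scaled to a common library size), against 521 to 959 CPM in the other 4 libraries. Values without these 2 libraries are given for the Tssk genes, their sum and shares, and for Pdpk1, H2afx and Dyrk4. In whole tissue, fewer cells of a type and less RNA per cell cannot be told apart.

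Tssk1 and Tssk2 lie head to tail on chromosome 16 and are the closest relatives in the family, which bears on how their reads can be assigned. Tssk1 (ENSMUSG00000041566) is a single-exon gene at 17894223 to 17897922 on the plus strand of mm10. Tssk2 (ENSMUSG00000045521), also of 1 exon, follows 714 bases later at 17898637 to 17900024 on the same strand. Their coding sequences, read from the GENCODE M21 transcripts, were identical at 853 of 1053 aligned bases (81.0%). The other 14 pairs of members were identical at 58.0% to 63.4%. The longest identical stretch between Tssk1 and Tssk2 was 113 bases, from base 371 to base 483 of both coding sequences, whereas no other pair shared more than 14 bases in a row. That stretch is printed below in capitals with the 30 bases on either side, because a read lying wholly inside it cannot be given to either gene by its sequence.
Tssk1 coding bases 341 to 513: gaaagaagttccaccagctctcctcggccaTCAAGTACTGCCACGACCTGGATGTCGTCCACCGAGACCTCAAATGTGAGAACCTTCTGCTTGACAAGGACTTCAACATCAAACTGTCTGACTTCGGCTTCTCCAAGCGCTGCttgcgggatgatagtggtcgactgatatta
Tssk2 coding bases 341 to 513: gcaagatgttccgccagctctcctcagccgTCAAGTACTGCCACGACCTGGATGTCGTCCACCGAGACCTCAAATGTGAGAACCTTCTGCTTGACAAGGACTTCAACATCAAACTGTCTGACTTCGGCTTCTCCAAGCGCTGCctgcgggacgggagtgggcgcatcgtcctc
Counts of these 2 genes are therefore uncertain to the extent that reads fitted inside the shared stretch and the authors' counting split or dropped them. The coding runs shared by any other pair of members were too short to be mistaken in this way. Untranslated regions and genes outside the family were not compared.

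The stretches before the start sites of Tssk1 and Tssk2 are also shown, and their part in the levels of these 2 genes was not tested. They were chosen after both genes were seen on the same side of their means in every library, as described further on. They are the 250 bases before the RefSeq start on the plus strand of GRCm38.p6, the assembly of mm10, at chr16:17893953-17894202 for Tssk1 and chr16:17898387-17898636 for Tssk2. The Tssk1 window lies inside the span of Dgcr2, a gene on the opposite strand, and that span ends inside the Tssk2 window, at 17898562. Capitals mark each run of at least 8 bases found in both.
Tssk1 promoter: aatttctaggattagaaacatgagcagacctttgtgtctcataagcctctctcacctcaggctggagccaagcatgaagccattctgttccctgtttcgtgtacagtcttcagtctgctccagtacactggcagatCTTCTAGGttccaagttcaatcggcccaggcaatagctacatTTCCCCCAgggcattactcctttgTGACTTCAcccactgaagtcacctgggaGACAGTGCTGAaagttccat
Tssk2 promoter: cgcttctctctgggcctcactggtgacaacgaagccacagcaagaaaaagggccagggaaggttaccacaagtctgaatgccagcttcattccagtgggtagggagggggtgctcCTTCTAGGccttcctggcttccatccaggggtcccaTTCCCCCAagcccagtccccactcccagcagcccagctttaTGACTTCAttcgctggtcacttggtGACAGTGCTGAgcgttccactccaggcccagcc
Both held 4 such runs in the same order, and these runs were picked for counting after the sequences were seen. The longest, GACAGTGCTGA, began 20 bases before the start of Tssk1 and 33 before that of Tssk2, and on either strand it occurred in 6 of 32851 mouse promoter windows of this length (0.0183%), 2 of which are the windows shown. TGACTTCA, at 48 bases before the start of Tssk1 and 58 before that of Tssk2, occurred in 1.31% of windows, TTCCCCCA in 1.85% and CTTCTAGG in 0.95%. Tssk1 held TGACTTCA also on the minus strand, 35 bases before its start. TGACTTCA differs by a single letter from the cyclic AMP response element TGACGTCA, the site bound by CREB and by CREM, the latter a regulator of spermatid genes. The share of windows with any such near match was not counted. The full element TGACGTCA was in none of the 5 member windows in the RefSeq table (Tssk1, Tssk2, Tssk3, Tssk4 and Tssk6) and in 1.55% of all windows. The Tssk3 window, at 129490771 to 129491020 on the minus strand of chromosome 4, lies inside the Tssk3 gene. The Tssk4 window lies inside the longer RefSeq span of Tssk4. Both thus precede a start used by the RefSeq table and not the outermost start of the gene. The Tssk6 window lies inside the span of Ndufa13, a gene on the opposite strand. The shorter form TGACG, which lies inside TGACGTCA but not inside TGACTTCA, was in 17.8% of all windows. Among the 5 it was found once, in Tssk6, 73 bases before the start, and so not in Tssk1 or Tssk2. The letters GTTGCC, part of the X-box bound by RFX factors, were in none of the 5 and in 10.4% of all windows. All motifs were searched on both strands, and these matches describe letters, not bound sites. How many runs of at least 8 bases 2 unrelated windows share was not counted.

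Tssk6 was the most abundant member and Tssk5 the scarcest, whichever gene length was used. Levels between genes are compared as CPM per kilobase of gene length, with library sizes adjusted by TMM, a normalisation that trims extreme genes. With the lengths in the deposited table, the mean and SD over the 6 libraries were 431 ± 19.3 CPM per kb for Tssk6 and 382 ± 26.4 for Tssk2. Tssk3 followed with 151 ± 9.0, Tssk1 with 96.3 ± 7.21, Tssk4 with 55.2 ± 4.33 and Tssk5 with 4.99 ± 0.726 CPM per kb. Among the 19320 genes kept after a low-count filter, Tssk6 ranked 79 and Tssk2 ranked 95 on this scale. Tssk3 ranked 409, Tssk1 ranked 706, Tssk4 ranked 1337 and Tssk5 ranked 8108. The ranges of Tssk6 (402 to 456) and Tssk2 (342 to 408) overlapped across libraries. Within every library, however, Tssk6 was above Tssk2, by 1.03 to 1.26 times. The ranges of all other neighbours in this order did not overlap, and Tssk4 was above Tssk5 by 9.83 to 12.8 times within a library.

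The place of Tssk1 depended on the length assigned to it. Its deposited length of 3700 bases is that of the Ensembl transcript, of which 2472 bases lie after the coding region, while the RefSeq gene spans 1451 bases, from 17894203 to 17895653. With the RefSeq span, Tssk1 had 246 ± 18.4 CPM per kb and stood above Tssk3, by 1.52 to 1.82 times within a library. With coding lengths alone (1095 bases for Tssk1, 804 for Tssk3), Tssk1 had 326 ± 24.4 and Tssk3 had 241 ± 14.3 CPM per kb, a ratio of 1.27 to 1.52. With coding lengths, the range of Tssk6 (mean 703 ± 31.5) no longer overlapped that of Tssk2 (493 ± 34.1). How far reads covered the long end of the Tssk1 exon cannot be seen from counts per gene.

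**Figure D1:**
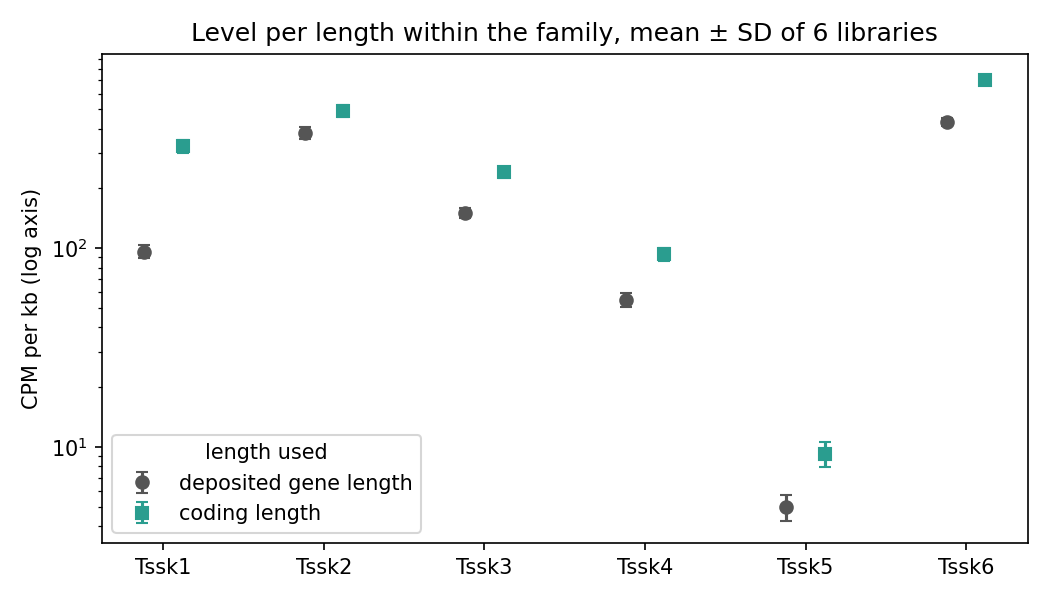
Level of each Tssk gene as CPM per kilobase on a log axis, mean and SD over 6 libraries, with the deposited gene length (circles) and with the coding length (squares). Tssk6 is highest and Tssk5 lowest on both, and Tssk1 lies below Tssk3 with the deposited lengths (96.3 and 151) and above it with coding lengths (326 and 241).

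No Tssk gene passed the test between KO and WT testes, and for each the KO values overlapped the WT values. With edgeR's quasi-likelihood method and p-values adjusted by Benjamini-Hochberg over all 19320 genes, 0 of 6 members were called, against 0.00518% of all genes (1 gene, 1700052I22Rik, lower in KO). No member had an unadjusted p under 0.05, against 4.63% of all genes, and DESeq2 and limma-voom also called 0 of 6. The groups did not overlap for 0 of 6 members, against 9.32% of all genes. The members' median log2 fold change was -0.020, with 2 above and 4 below 0, beside a median of -0.0025 over all genes tested. Without WT 1 and KO 2 the log2 fold changes were 0.14 for Tssk1, 0.099 for Tssk2, -0.044 for Tssk3, -0.071 for Tssk4, -0.25 for Tssk5 and -0.078 for Tssk6, with 0 called (edgeR, lowest adjusted p = 0.654). In those 4 libraries the groups did not overlap for 3 of 6 members, Tssk1 and Tssk2 (KO above WT) and Tssk6 (KO below WT), against 39.2% of all genes.

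The most abundant kinase genes were measured with narrow intervals. In the order of replicates 1 to 3, Tssk6 had 536, 609 and 592 CPM in the WT libraries and 579, 579 and 557 CPM in the KO libraries. The 3 KO values lay inside the WT range. Its log2 fold change of KO over WT was -0.019 (95% interval -0.16 to 0.13), an interval of -10.6% to 9.06% in level (edgeR, adjusted p = 0.988).

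Tssk2 had 475, 504 and 552 CPM in WT and 566, 517 and 563 CPM in KO. KO 1 and KO 3 were the highest libraries, and KO 2 fell between WT 2 and WT 3. The log2 fold change was 0.10 (95% interval -0.050 to 0.26, edgeR adjusted p = 0.965). Its tandem neighbour Tssk1 had 332, 338 and 364 CPM in WT and 381, 331 and 393 CPM in KO. KO 1 and KO 3 were again highest, and KO 2 was the lowest of all 6 libraries. The log2 fold change of Tssk1 was 0.095 (95% interval -0.071 to 0.26, edgeR adjusted p = 0.967).

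Tssk3 had 189, 195 and 210 CPM in WT and 202, 177 and 190 CPM in KO. The highest library was WT 3 and the lowest KO 2, with the other 4 between them. The log2 fold change was -0.062 (95% interval -0.23 to 0.10, edgeR adjusted p = 0.970). Tssk3 (ENSMUSG00000000411) has 2 exons on the minus strand of chromosome 4, at 129489014 to 129491022.

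Tssk4, whose product acts on the sperm tail, had 93.0, 107 and 86.6 CPM in WT and 88.0, 98.7 and 95.6 CPM in KO. WT libraries were both the highest and the lowest, so the KO values lay inside the WT range. The log2 fold change was -0.021 (95% interval -0.22 to 0.18, edgeR adjusted p = 0.988). Tssk4 (ENSMUSG00000007591) lies on the plus strand of chromosome 14, at 55650184 to 55652539, and has 6 annotated coding transcripts, which counts per gene do not separate.

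Tssk5 gave the widest interval. It had 206, 226 and 175 reads in WT and 147, 173 and 184 reads in KO, or 11.4, 12.6 and 9.63 CPM and 8.27, 9.82 and 10.3 CPM. WT 1 and WT 2 were the highest libraries, but WT 3 lay below KO 2 and KO 3. The log2 fold change was -0.24 (95% interval -0.57 to 0.082), the smallest p of the family at 0.131 in edgeR before adjustment (adjusted p = 0.965). In level that interval ran from -32.6% to 5.85%, whereas for the other 5 members the intervals together ran from -14.7% to 19.9%. Tssk5 (ENSMUSG00000060794) is on the minus strand of chromosome 15, at 76371952 to 76374938, with 8 exons in its coding transcript.

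**Figure D2:**
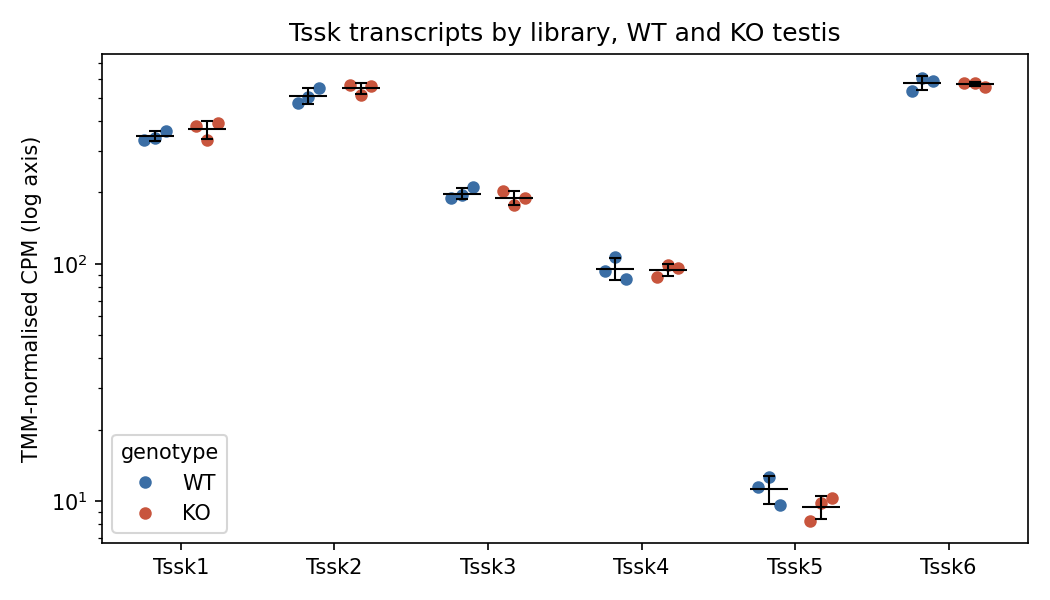
TMM-normalised CPM of each Tssk gene on a log axis, 1 point per library for WT (blue) and KO (red), with the group mean and SD in black. The points of both genotypes overlap for all 6 genes, and Tssk5, at 8.27 to 12.6 CPM, has the widest relative spread.

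With all 6 libraries, the make-up of the family overlapped between genotypes. Together the 6 genes had 1739 ± 91.7 CPM in WT and 1782 ± 60.6 CPM in KO (SD, n = 3), or 0.174% and 0.177% of all counts. WT 1 was the lowest library, at 1637 CPM, and the next lowest was KO 2, at 1712 CPM. The other libraries had 1765 and 1814 CPM in WT and 1824 and 1809 CPM in KO, which still overlapped. As a share of the summed CPM per kb with deposited lengths, Tssk6 held 39.1% ± 1.1 in WT and 37.9% ± 1.52 in KO. Tssk2 held 33.1% ± 1.13 in WT and 35.0% ± 0.861 in KO, the widest gap of any member at 1.85 percentage points. Tssk3 held 13.9% ± 0.382 and 13.1% ± 0.530, a difference of -0.840 points. Tssk1 held 8.39% ± 0.295 and 8.79% ± 0.590, Tssk4 5.02% ± 0.594 and 4.85% ± 0.408, and Tssk5 0.489% ± 0.0764 and 0.405% ± 0.0520. The WT and KO ranges overlapped for all 6 shares. Without WT 1 and KO 2 the shares of 3 of 6 members no longer overlapped. In CPM, 39.2% of all genes did not overlap in the same libraries. Shares add up to a fixed total, so a higher share of some members means a lower share of others. In these libraries Tssk2 held 32.1% and 34.3% in WT and 35.2% and 35.6% in KO, a difference of 2.23 points. Tssk6 held 40.3% and 38.3% in WT and 37.5% and 36.7% in KO (-2.24 points), and Tssk1 held 8.06% and 8.49% in WT and 8.89% and 9.33% in KO (0.835 points). With 3 libraries against 3 an exact permutation test cannot go below p = 0.1, so the shares are given as a description. With the RefSeq span for Tssk1, a length chosen after the data were seen, the share of Tssk3 was 12.3% ± 0.290 in WT and 11.5% ± 0.422 in KO (SD, n = 3), with all KO values below all WT values but KO 1 nearly level with WT 2.

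**Figure D3:**
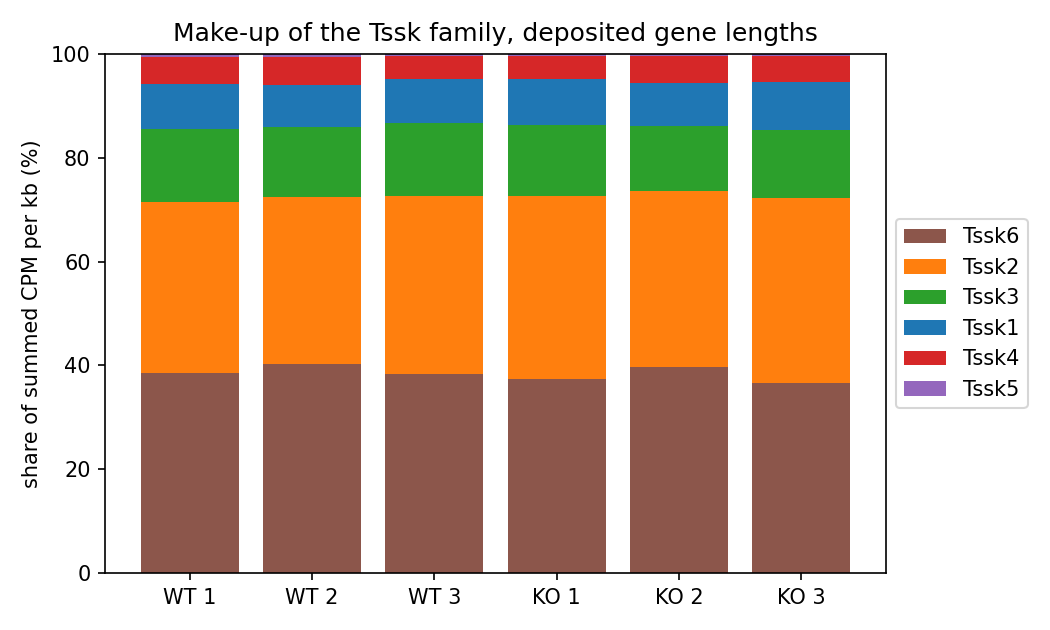
Share of each Tssk gene in the summed CPM per kb of the family, in percent, for each of the 6 libraries with deposited gene lengths. The bands have similar heights in every library, Tssk6 between 36.7% and 40.3% and Tssk2 between 32.1% and 35.6%.

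Of the 15 pairs of members, the tandem pair Tssk1 and Tssk2 kept most to the same side of their means from library to library. Both were below their own mean over the 6 libraries in WT 1, WT 2 and KO 2 and above it in WT 3, KO 1 and KO 3, so they were on the same side in 6 of 6 libraries. The ratio of Tssk2 to Tssk1 counts was 1.43, 1.49 and 1.52 in WT and 1.49, 1.56 and 1.43 in KO, with means of 1.48 ± 0.0453 and 1.49 ± 0.0648 (SD, n = 3). The other pairs were on the same side in 1 to 5 libraries, the pair of Tssk5 and Tssk6 in 1 and the pair of Tssk3 and Tssk6 in 5. Tssk1 and Tssk2 were picked out after these values were seen. How often pairs outside the family stay on the same side in every library was not counted. WT 1 and KO 2, where Tssk1 and Tssk2 were below their means, also stood apart on principal component 1. WT 2, where both were below their means too, did not (score 11.3). A link between the pair and this component was not tested. Tssk5 ranged most, from -0.31 in KO 1 to 0.30 in WT 2 on the log2 scale. Its coefficient of variation over the 6 libraries was 14.5%, beside a median of 12.5% for the 500 genes nearest to it in CPM. For Tssk6 it was 4.48%, beside 5.62% for the 463 genes nearest to it, and for Tssk3 5.95% beside 6.40%. Tssk1 (7.49% beside 5.72%), Tssk2 (6.93% beside 5.62%) and Tssk4 (7.84% beside 7.15%) lay above the median of the genes nearest to them.

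**Figure D4:**
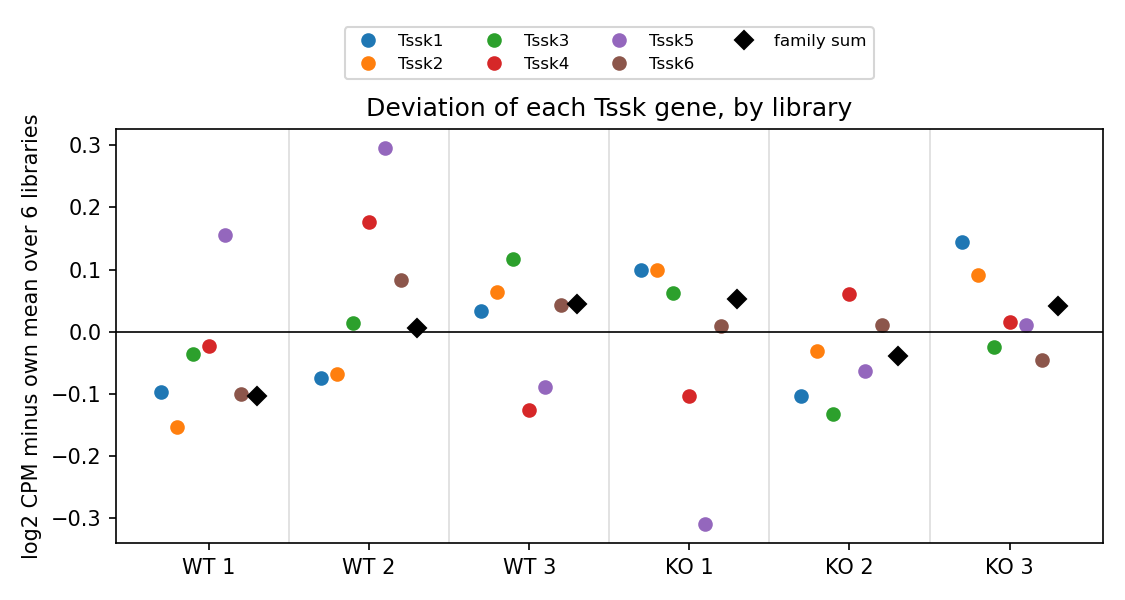
Deviation of log2 CPM from the gene's own mean over 6 libraries, for each Tssk gene (circles) and for the family sum (black diamonds). Tssk1 and Tssk2 lie on the same side of 0 in all 6 libraries, and Tssk5 spans -0.31 to 0.30.

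Protein-coding genes with profiles like that of the family sum were found by the root mean square difference of centred log2 CPM over the 6 libraries. Among the closest were 1700016H13Rik (0.012), Eif2d (0.013), encoding a translation initiation factor, Actl7a (0.020), encoding a testis actin-like protein, and Nat8f4 (0.020). Likeness at this scale was common, since 2925 of 14180 compared genes differed from the family sum by less than 0.1, and the members Tssk2, Tssk6, Tssk3 and Tssk1 themselves stood at 0.047 to 0.063. Tssk4 (0.13) and Tssk5 (0.22) were farther from the sum. Each member is itself part of that sum and the more abundant ones weigh more in it, which brings them closer to it.

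In a chosen list of genes whose products work with TSSKs, none passed the test either. Of 11 partners and substrates, 0 were called in edgeR, against 0.00518% of all genes, and 2 had an unadjusted p under 0.05, against 4.63% of all genes. DESeq2 and limma-voom also called 0 of them. Their median log2 fold change was -0.022. Tsks, the substrate bound by TSSK1 and TSSK2, had 529, 534 and 666 CPM in WT and 638, 477 and 571 CPM in KO. The highest library was WT 3 and the lowest KO 2. Its log2 fold change was -0.037 (95% interval -0.26 to 0.19, edgeR adjusted p = 0.986). Tsacc, the co-chaperone that activates TSSK6, had 61.7 ± 4.49 CPM in WT and 63.7 ± 3.21 CPM in KO (SD, n = 3; log2 fold change 0.045). The chaperone genes Hsp90aa1 and Hspa2 had log2 fold changes of 0.064 and -0.065. Odf2, the substrate of TSSK4, had 3602 ± 129 CPM in WT and 3620 ± 145 CPM in KO, and its log2 fold change was 0.0070 (95% interval -0.11 to 0.12). Ppp1cc, whose sperm isoform of protein phosphatase 1 occurs in a complex with TSKS and TSSK1, had a log2 fold change of -0.022.

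The 2 partner genes with an unadjusted p under 0.05 were Pdpk1 and H2afx, in opposite directions. Pdpk1, encoding the kinase PDK1, which can phosphorylate TSSK3, had 210, 193 and 215 CPM in WT and 236, 226 and 291 CPM in KO. All KO values were above all WT values, as happened in 1 of the 11 partner genes and in 9.32% of all genes. Its log2 fold change was 0.28 (95% interval 0.082 to 0.48), and it did not pass edgeR's test over all genes (adjusted p = 0.965). It was 0.16 (without KO 3) to 0.36 (without KO 2) with 1 library left out and 0.37 without WT 1 and KO 2. H2afx, encoding the histone variant whose phosphorylation in spermatids depends on TSSK6, had 59.4, 79.7 and 63.5 CPM in WT and 62.5, 55.3 and 49.7 CPM in KO. KO 1 lay within the WT range and the other KO libraries below it. Its log2 fold change was -0.27 (95% interval -0.52 to -0.025, edgeR adjusted p = 0.965). It was -0.36 (without KO 1) to -0.14 (without WT 2) with 1 library left out and -0.35 without WT 1 and KO 2.

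Of 8 other kinases known from male germ cells, 0 were called in edgeR, against 0.00518% of all genes, and 1 had an unadjusted p under 0.05, against 4.63%. DESeq2 and limma-voom called 0 of the 8. Their median log2 fold change was 0.049, and 6 of 8 lay above 0, beside 9528 of all 19320 genes. The gene with an unadjusted p under 0.05 was Dyrk4, a dual-specificity kinase gene, with 29.2, 27.9 and 32.4 CPM in WT and 40.7, 35.7 and 49.99 CPM in KO. All 3 KO libraries were above all 3 WT libraries, which was so for 2 of the 8 genes, the other being Mak, against 9.32% of all genes. The log2 fold change of Dyrk4 was 0.50 (95% interval 0.24 to 0.76, edgeR adjusted p = 0.965). With no low-count filter its adjusted p was 0.00850, in a fit that called 50 genes. Leaving out 1 library gave 0.36 (without KO 3) to 0.61 (without KO 2), and leaving out WT 1 and KO 2 gave 0.59 (edgeR adjusted p = 0.211). Stk33, a kinase gene needed for sperm tail formation, had a log2 fold change of 0.090, Camk4, a calcium-dependent kinase gene, 0.11, and Mak, a kinase gene expressed from meiosis onwards, 0.058.

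**Figure D5:**
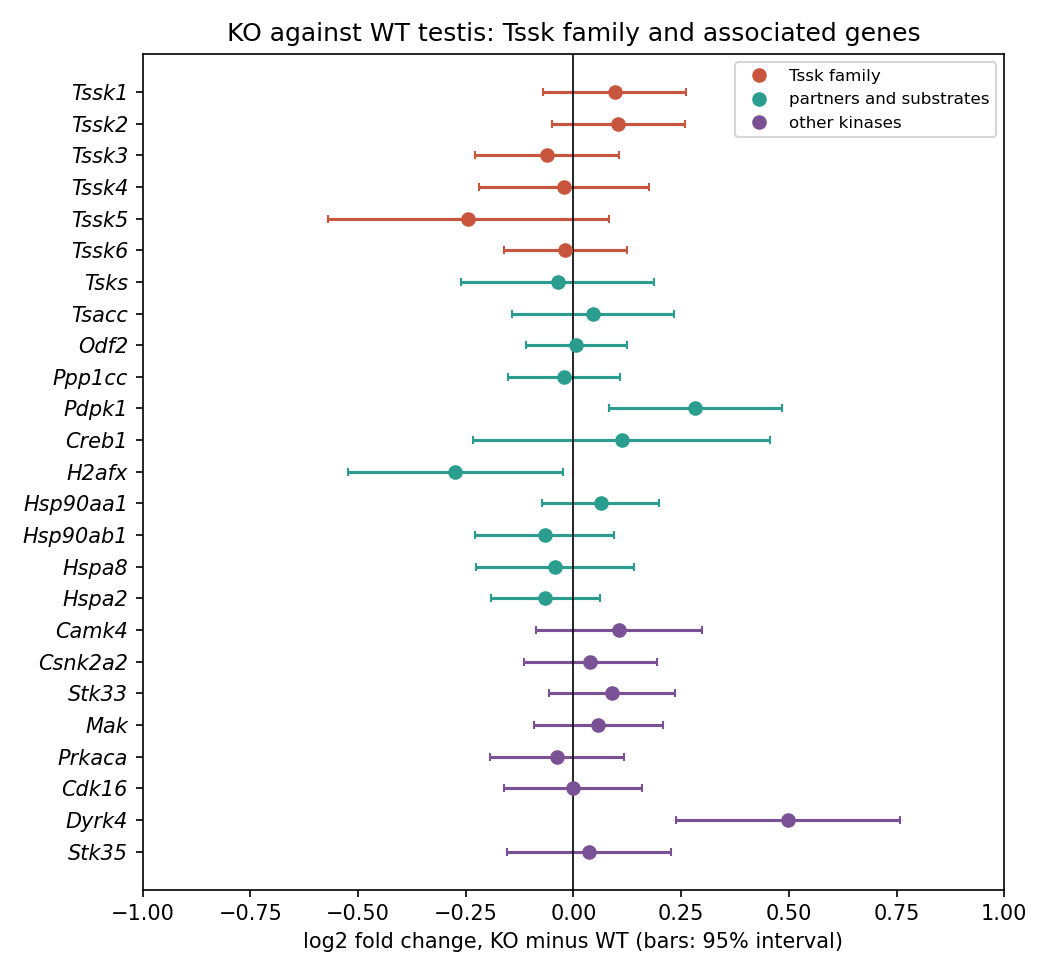
Log2 fold change of KO over WT with its 95% interval for the 6 Tssk genes (red), 11 partners and substrates (green) and 8 other kinases (purple). All 6 Tssk intervals span 0, and the intervals of Pdpk1, H2afx and Dyrk4 do not, although none of the 3 passed the test over all genes.

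Markers of the cells that hold the TSSK transcripts were compared beside them. Of 12 round spermatid markers 0 were called in edgeR, with a median log2 fold change of 0.042 and a summed level of 2478 to 2738 CPM in WT and 2627 to 2851 CPM in KO. Of 12 elongating spermatid markers 0 were called, with a median of 0.033 and 19696 to 21840 CPM in WT against 19256 to 22497 CPM in KO. At an unadjusted p under 0.05 these lists held 1 and 0 genes, against 4.63% of all genes. Summed macrophage markers were 111 to 137 CPM in WT and 91.7 to 114 CPM in KO, with 10 of 10 genes below 0 and 4 at an unadjusted p under 0.05. All 8 Leydig cell markers and all 3 tested blood markers were below 0 as well, each list with 1 gene at an unadjusted p under 0.05. Of all 19320 genes 9792 were below 0, and edgeR called 0 genes of these 3 lists. Their part in the TSSK values was not tested.

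Annotated genes that overlap or flank the members were checked, because the sources used here do not say whether counting used strand. Tssk6 (ENSMUSG00000047654), a single exon on the plus strand of chromosome 8 at 69902184 to 69903518, shares 375 of its 1335 exonic bases with Ndufa13, a complex I subunit gene on the minus strand, and 15 with Yjefn3. Tssk1 lies wholly within the span of Dgcr2 on the opposite strand, with 63 shared exonic bases. Without strand, reads from such stretches cannot be told apart. Ndufa13 had 56.8, 69.8 and 78.2 CPM in WT and 79.8, 48.7 and 77.6 CPM in KO, beside 536 to 609 CPM for Tssk6. How many reads from the shared bases were given to either gene or dropped was not tested. The level of Tssk6 per kb is uncertain to the same extent. Dgcr2 had 46.7 ± 2.98 CPM in WT and 49.1 ± 3.74 CPM in KO (SD, n = 3). Of the 13 genes that overlap a member or are the nearest tested gene on either side, 0 were called in edgeR and 1 had an unadjusted p under 0.05, against 4.63% of all genes. That gene, Hgh1, lies 514 bases from Tssk5. Hgh1 had 47.6, 50.8 and 51.0 CPM in WT and 44.6, 42.2 and 44.0 CPM in KO, a log2 fold change of -0.19 (edgeR adjusted p = 0.965). The groups did not overlap for 2 of the 13, Hgh1 and Gatad2a near Tssk6 (log2 fold change -0.16), against 9.32% of all genes.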

How the data were processed

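The deposited table gives raw read counts (whole numbers) for Ensembl genes in 6 libraries, beside coordinates and gene length in bases, per the file header. HISAT2 2.0.0 and mm10 are named in the submitters' processing notes. Poly(A)-directed mRNA libraries were made from TRIzol RNA, per the labels' protocols. The counting tool and its use of strand: not given in the sources used here. Columns were matched to samples by title, with 0 left unmatched.

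Genes were filtered with filterByExpr (minimum count 10, minimum total 15), which left 19320. KO was compared with WT in edgeR 4.0.16 (glmQLFit, glmQLFTest, TMM factors 0.992 to 1.01, no covariate, threshold 0.05), in R 4.3.3. The common biological coefficient of variation was 0.112. Fold-change intervals are 95% intervals from the fit's moderated errors. DESeq2 1.42.0, limma 3.58.1 (voom), other scalings, filters, the replicate block and omitted libraries were the alternatives. Coding lengths, the RefSeq span of Tssk1 and leaving out WT 1 with KO 2 were added after the data were seen. Every pair of libraries differed by more than sampling noise (chi-square per degree of freedom at least 4.30).

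The members and lists were chosen with earlier results of these data known. Named genes were 1700052I22Rik, the members, Tsks, Tsacc, Odf2, Ppp1cc, H2afx and the 3 other partners and 4 other kinases with the smallest p, genes overlapping or flanking members, and the 5 closest profiles, of which 1 is not reported here. Lists for spermatogonia, Sertoli cells, Leydig cells, blood and epididymis were also fixed. Their median log2 fold changes were -0.093, -0.14, -0.33, -0.46 and 0.012, the last from 1 tested gene, with 0 called in edgeR; the spermatocyte list had -0.0078.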

Additional observations from a re-analysis of the deposited data

How the results depend on the processing

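With 6 libraries, 15 alternatives were run for each member, and the family had 0 called genes in all of them. The smallest unadjusted p of a member was 0.042 in edgeR, for Tssk1 without KO 2 (log2 fold change 0.17, adjusted p = 0.647). Tssk1 and Tssk2 stayed above 0 and Tssk3 and Tssk5 below 0 throughout. Leaving out 1 library at a time moved Tssk1 from 0.046 to 0.17, Tssk2 from 0.055 to 0.16, Tssk3 from -0.11 to -0.0092 and Tssk5 from -0.34 to -0.15 (log2). Tssk4 ran from -0.086 to 0.066 and Tssk6 from -0.071 to 0.018, so the sign of both was not stable. Genes called numbered 50 with no low-count filter, 2 in DESeq2, 1 to 3 with 1 library left out (3 without WT 2, 2 without WT 3 or KO 3) and 9 without WT 1 and KO 2. With no filter 1 kinase was called, Dyrk4. Without WT 1 and KO 2, Tsks was at 0.013 and AC078895.1 at -0.049. With library size alone Odf2 was at -0.0053 and Ndufa13 at -0.0044. Voom put Ndufa13 at -0.012 and Yjefn3 at 0.055. With 1 library left out the sign also changed for Tsks (-0.14 to 0.081), Tsacc (-0.0085 to 0.095), Odf2 (-0.025 to 0.027), Ppp1cc (-0.040 to 0.010), AC078895.1 (-0.13 to 0.24), Mdp1 (-0.051 to 0.10), Ndufa13 (-0.11 to 0.21), Yjefn3 (-0.29 to 0.49), Cilp2 (-0.48 to 0.00061), Fam229a (-0.24 to 0.025), 1700016H13Rik (-0.00012 to 0.066), Eif2d (-0.0079 to 0.058), Actl7a (-0.0038 to 0.090) and Nat8f4 (-0.017 to 0.081). The cause was not tested.

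Whether the replicate numbers pair the libraries was not settled. Same-numbered WT and KO deviations from the group mean correlated at -0.17, -0.029 and 0.11 across genes. Because the deviations were centred within each group, these values depend on each other and cannot exclude a pairing. With the replicate number as a block 1 gene was called, as without it, Ndufa13 was at -0.010 and Yjefn3 at 0.014. Tssk5, with 147 to 226 reads per library, had the widest interval of the family.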
